A study of Mus musculus with 4 samples.

Results

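The genes of cholesterol and fatty acid synthesis were followed in 4T1 cells, a mouse mammary carcinoma line, given recombinant IL-17A (rIL17) or, as the control, phosphate-buffered saline (PBS). The set has 31 genes, chosen by symbol: 19 of the sterol branch and 12 of the fatty acid branch, out of 21840 genes in the deposited table. All 31 had a row, and all 31 passed the floor for testing. Both groups were wild-type 4T1 cells labelled epithelial, with 2 libraries each, and the labels give neither the dose nor the time of treatment. Whether the 2 libraries of a group were grown as separate cultures is not in the labels, and p-values therefore reflect library-to-library spread that may be technical.

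Cells make cholesterol from acetyl-CoA through mevalonate, isoprenoids, squalene and lanosterol, and make fatty acids from acetyl-CoA through malonyl-CoA. Both branches are under the SREBP transcription factors, which the sterol sensor SCAP escorts from the endoplasmic reticulum and which INSIG proteins hold back when sterols are plentiful. SREBP-2 acts mainly on sterol genes and SREBP-1 mainly on fatty acid genes, often together with NF-Y, a factor that binds CCAAT boxes. Tumor cells draw on both branches for membranes.

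None of the 31 genes passed after adjustment over all genes tested. The largest differences by ratio lay in the sterol branch. Hmgcs1, Sc5d and Idi1 were 1.40-fold, 1.44-fold and 1.70-fold higher in the rIL17 libraries. Dhcr7 was lower, at 0.80 of its PBS level. By unadjusted limma p, Idi1 (0.0241) lay behind Scd1 (0.00827) and Elovl6 (0.0219) of the fatty acid branch. Hmgcs1, Sc5d and Idi1 had the lowest GC content of the set, 41.9% to 43.1%. The median log2 fold change over all genes tested below 45% GC was 0.23. With a GC correction Hmgcs1 went from 0.49 to 0.31 and Sc5d from 0.53 to 0.34 on the log2 scale, and without PBS replicate 2 Idi1 went from 0.77 to 0.44. The regulators Srebf1, Srebf2, Scap and Insig1 had log2 fold changes between -0.07 and 0.05. In the fatty acid branch the largest differences by ratio were in desaturation and elongation (Scd1, Elovl5 and Elovl6, ratios of 1.16 to 1.2). With the GC correction Scd1 went from 0.26 to 0.24, Elovl5 from 0.26 to 0.17 and Elovl6 from 0.21 to 0.08 on the log2 scale. Fads1, at 0.19, then lay above both elongases. Without PBS replicate 2 Elovl5 was 0.11. Fasn and Acaca, the enzymes that build the chain, had ratios of 1.00 and 0.99.

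The test was limma on log2(normalized count + 1), called at a Benjamini-Hochberg adjusted p below 0.05 over 13479 genes. It called 0 of the 31 genes, where 103 of all genes tested, or 0.764%, were called. At an unadjusted p below 0.05 there were 7 genes higher and 1 lower, against 16.0% of all genes tested in either direction. By limma-voom 0 of the 31 were called, against 1.01% of all genes. Without PBS replicate 1, 7 genes passed, all higher in rIL17 (Hmgcs1, Idi1, Cyp51, Sc5d, Msmo1, Scd1 and Elovl5), in a fit where the lone PBS library is assumed to vary as the rIL17 libraries did. That fit called 1743 of all genes tested, or 12.9%, as higher. Counts without each other library, for the set and for all genes tested, are given with the alternatives below.

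As a check of the treatment, the IL-17 target genes Lcn2, Il6, Cxcl1 and Nfkbiz rose in the same test, with log2 fold changes of 1.75, 2.96, 0.80 and 0.58. Libraries held 17511450 to 17970104 reads assigned to genes. Of the epithelial markers, Krt8 and Krt18 were abundant, Epcam lay at 76.6 to 135 and Cdh1 at 139 to 208 normalized counts, and Krt14 at 1.00 to 5.89. The 7 epithelial markers summed to 52302 to 56273 in PBS and 44245 to 46064 in rIL17. Krt8 and Krt18 made up most of that sum, and Epcam had overlapping groups. The 3 fibroblast markers with a row, mostly Pdgfra, summed to 2406 to 2518 in PBS and 2939 to 2946 in rIL17. Of these, Pdgfra and Dcn were higher in both rIL17 libraries. Col1a1 was lower, at 51 and 37.8 in PBS and 29.2 and 30.1 in rIL17. The part of these shifts in the results was not tested. Of 5 adipocyte markers 1 had a row, Adipoq, at 0 to 1.99, and the 2 leukocyte markers with a row summed to at most 4.01. The 2 endothelial markers with a row summed to at most 7.04. In such bulk samples, fewer cells of a type and less RNA per cell cannot be told apart. PBS replicate 2 stood apart from the other libraries in genes of low GC content, and each main result is given with that library left out or with a GC correction.

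The promoters shown are those of the 2 higher genes with the smallest p and of Dhcr7, which was lower. They were searched for motifs through which SREBP factors and their partners are known to act. A link between these motifs and the direction of change was not tested. The sequences are RefSeq promoters of GRCm38.p6 (mm10), 250 bases before to 50 after the start, on the strand of the gene: chr13:119690101-119690400 (plus) for Hmgcs1, chr9:42264251-42264550 (minus) for Sc5d, and chr7:143822917-143823216 (plus) for Dhcr7, the entry of 3 that lies nearest to the GENCODE start. Capitals mark matches on either strand to a sterol regulatory element (TCACNCCAC), a CCAAT box (CCAAT) or an E-box (CACGTG).
Hmgcs1: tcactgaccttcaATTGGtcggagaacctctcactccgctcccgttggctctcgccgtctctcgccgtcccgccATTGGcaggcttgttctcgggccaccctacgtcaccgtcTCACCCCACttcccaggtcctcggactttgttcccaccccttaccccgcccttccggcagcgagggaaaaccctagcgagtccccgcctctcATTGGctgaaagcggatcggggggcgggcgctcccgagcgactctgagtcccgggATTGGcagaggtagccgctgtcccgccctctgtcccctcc
Sc5d: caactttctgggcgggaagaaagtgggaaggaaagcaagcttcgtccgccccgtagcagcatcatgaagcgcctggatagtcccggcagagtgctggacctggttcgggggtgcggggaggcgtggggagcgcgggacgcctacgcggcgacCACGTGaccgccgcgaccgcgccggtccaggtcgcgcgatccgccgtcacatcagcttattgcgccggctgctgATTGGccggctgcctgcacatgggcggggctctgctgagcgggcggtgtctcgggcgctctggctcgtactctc
Dhcr7: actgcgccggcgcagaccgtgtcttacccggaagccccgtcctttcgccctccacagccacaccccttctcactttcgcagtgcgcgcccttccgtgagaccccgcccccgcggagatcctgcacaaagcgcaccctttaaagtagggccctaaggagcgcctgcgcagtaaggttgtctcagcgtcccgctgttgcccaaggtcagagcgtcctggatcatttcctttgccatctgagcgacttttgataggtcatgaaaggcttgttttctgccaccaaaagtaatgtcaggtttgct

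Hmgcs1 had 1 match to the sterol element, 137 bases before the start, and 4 CCAAT boxes read as ATTGG. Sc5d had 1 E-box, 98 bases before the start, and 1 CCAAT box. The Dhcr7 window shown had none of the 3 motifs, and of its other entries 1 had an E-box and 1 a CCAAT box. RefSeq promoters were at hand for 24 of the 31 genes, in 30 entries. A CCAAT box was found in 20 of these entries (66.7%) and in 37.4% of all 32851 promoters of the same length. By gene, it was in 13 of 15 of the sterol branch and 6 of 9 of the fatty acid branch. The E-box was in 6 entries (20%, against 7.15% of all) and the sterol element in 1 (3.33%, against 1.24%). These matches are letters in a window and not measured binding.

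**Figure D1:**
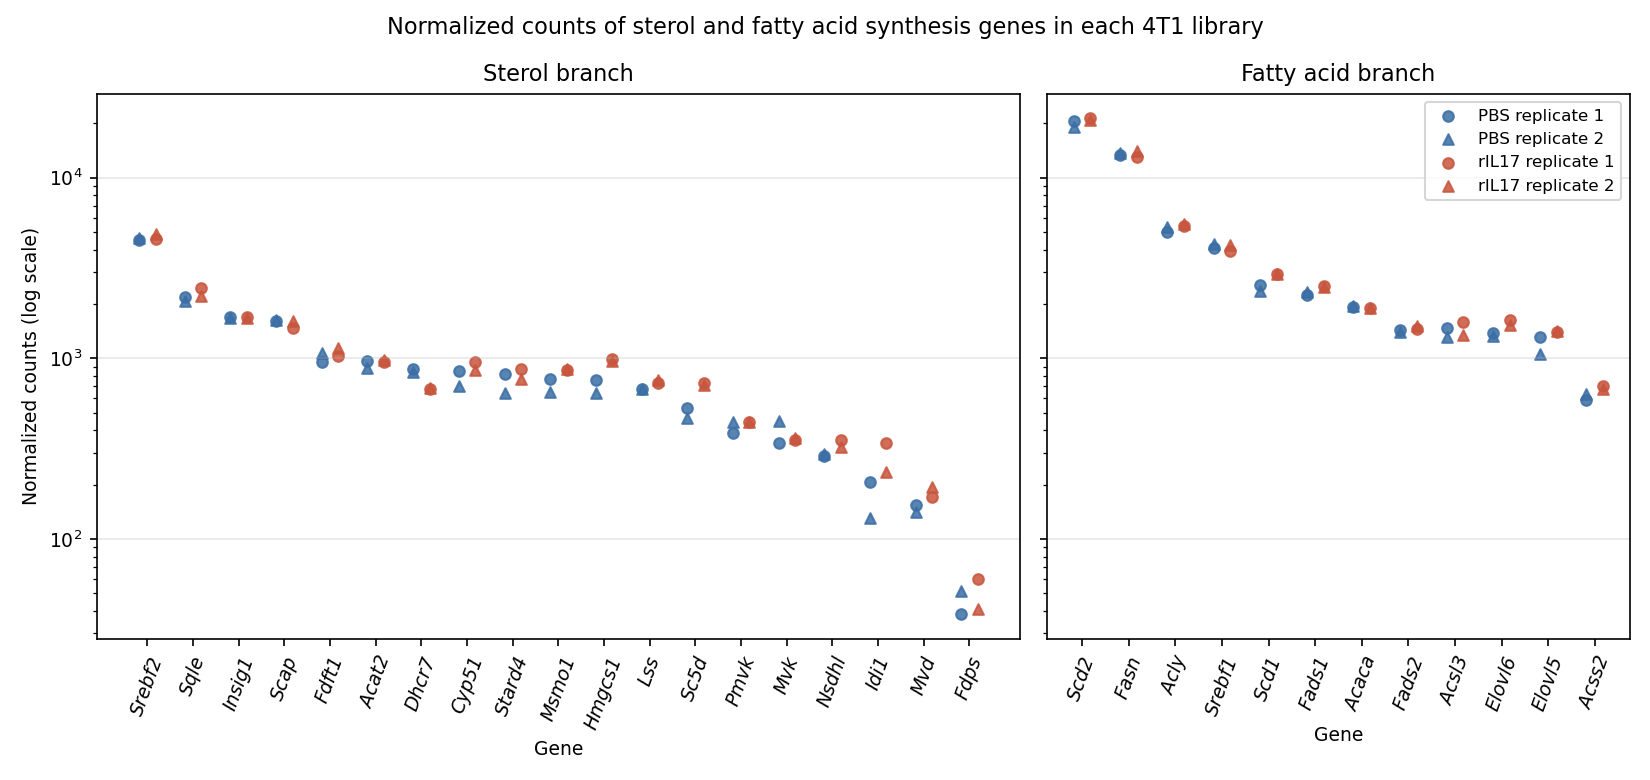
Normalized counts (log axis) of each gene in each of the 4 libraries, by branch and ordered by the PBS mean; circles are replicate 1 and triangles replicate 2, blue PBS and red rIL17. Scd2 and Fasn lie at the top, from 13073 upward, and Fdps at the bottom, from 38.3 to 60.3; for most genes the colours lie within a small fraction of the distance between genes.

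Levels spanned a wide range, and the plot of normalized counts by library shows that the spacing between genes far exceeded the spacing between groups. Per kilobase of the longest transcript, Scd2, a stearoyl-CoA desaturase, was the most abundant at 3754 normalized counts, followed by Fasn (1350) and Acly (1202). The lowest were Idi1 (75.3) and Fdps (16.2). The median over genes, on the same scale per kilobase, was 512 in the fatty acid branch and 242 in the sterol branch. Summed per kilobase, the sterol branch came to 5221 and 5112 under PBS, against 5530 and 5510 under rIL17. The fatty acid branch came to 10247 and 9994 under PBS, against 10718 and 10759 under rIL17. In both branches both rIL17 sums lay above both PBS sums. The total over all genes, not per kilobase, had the same order. It was 17631228 and 17413365 normalized counts under PBS, against 18005398 and 17767101 under rIL17.

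The regulators of the pathway differed little between the groups. Srebf2, encoding SREBP-2, had 4535 and 4640 normalized counts under PBS, against 4584 and 4893 under rIL17, and the groups overlapped. Its log2 fold change was 0.05 (SE 0.06, 95% confidence interval -0.10 to 0.20). Srebf1, encoding SREBP-1, had 4061 and 4286 under PBS, against 3952 and 4215 under rIL17, again overlapping, with a log2 fold change of -0.03 (interval -0.19 to 0.13). For Scap, the SREBP escort, the libraries held 1600 and 1635 under PBS, against 1471 and 1607 under rIL17. Insig1, which retains SREBP in the endoplasmic reticulum and is itself a target of SREBP, had 1698 and 1671 against 1697 and 1668. The interval for Insig1 ran from 0.90-fold to 1.11-fold. All 4 regulators had overlapping groups, and limma adjusted p-values of at least 0.667. These values concern RNA, and the processing of SREBP proteins was not measured.

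Among the enzymes from acetyl-CoA to squalene, Hmgcs1, the cytosolic HMG-CoA synthase (chromosome 13, 119690379 to 119708260), differed most clearly. It had 757 and 641 normalized counts under PBS, against 994 and 967 under rIL17, so both rIL17 libraries lay above both PBS libraries. The log2 fold change was 0.49 (SE 0.10, interval 0.25 to 0.74, limma adjusted p = 0.105). It was 0.37 when PBS replicate 2 was left out and 0.31 with the GC correction (adjusted p = 0.0617).

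Idi1, the isopentenyl-diphosphate isomerase (chromosome 13, 8885501 to 8892451), had the largest ratio of the set, with a standard error that was exceeded by that of Fdps alone. Its libraries held 208 and 130 normalized counts under PBS, against 338 and 236 under rIL17. The groups did not overlap, but replicate 1 exceeded replicate 2 in both. The log2 fold change of 0.77 (SE 0.26, limma adjusted p = 0.239) was 0.44 without PBS replicate 2 and 1.11 without PBS replicate 1. Annotated pseudogene transcripts match Idi1 closely, among them Gm13502 (100.0% identity over 684 bases, mean of 4.23 normalized counts), so its count is uncertain.

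Mvd, the decarboxylase that ends the mevalonate steps, had 155 and 142 under PBS, against 170 and 195 under rIL17, without overlap (log2 fold change 0.29, interval -0.06 to 0.64). With 59.0% its transcript is among the richest in GC of the set, and the GC correction gave 0.35 (limma adjusted p = 0.276). The mevalonate kinases had overlapping groups. Mvk had 342 and 449 under PBS, against 353 and 361 under rIL17, and Pmvk 385 and 446 against 447 and 443. For both, the spread between the PBS libraries was wider than the difference between groups. Acat2 (thiolase), Fdft1 (squalene synthase) and Fdps (farnesyl diphosphate synthase) had overlapping groups and log2 fold changes of 0.05, 0.10 and 0.16. The interval for Fdps, at 38.3 to 60.3 normalized counts per library, reached from 0.69-fold to 1.81-fold, so a change of 1.5-fold was not excluded. Acat2 and Fdft1 share sequence with other annotated genes: Acat2 with Tcp1 (98.7% identity over 445 bases, mean of 6873 normalized counts) and Acat3 (97.7% over 1477 bases, mean of 9.5), and Fdft1 with Ctsb, whose exons overlap its own on the opposite strand by 774 bases.

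From squalene to cholesterol, 7 of 7 enzymes had groups that did not overlap: 6 with both rIL17 libraries above both PBS libraries, and Dhcr7 below. Over all genes tested, 25.4% lay above in this way and 24.7% below. Sc5d, the lathosterol desaturase (chromosome 9, 42251595 to 42264256), had 531 and 468 normalized counts under PBS, against 731 and 708 under rIL17. Its log2 fold change of 0.53 (SE 0.10, interval 0.29 to 0.76, limma adjusted p = 0.0846) had the smallest p of the set. With PBS replicate 2 left out it was 0.44, and it was 0.34 with the GC correction (adjusted p = 0.0723).

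Dhcr7, the reductase that follows Sc5d in the last steps to cholesterol (chromosome 7, 143823145 to 143848410), lay the other way. It had 875 and 841 normalized counts under PBS, against 677 and 689 under rIL17, with a wider gap between groups than within either. The log2 fold change was -0.33 (SE 0.08, interval -0.52 to -0.14, limma adjusted p = 0.14). Leaving out PBS replicate 2 gave -0.36, and the value was -0.27 with the GC correction (adjusted p = 0.125). Neither Sc5d nor Dhcr7 has an annotated near-identical transcript or an overlapping exon of another gene.

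Msmo1, the methylsterol monooxygenase, had 770 and 648 under PBS, against 862 and 871 under rIL17 (log2 fold change 0.29, SE 0.10), and 0.17 without PBS replicate 2. Sqle, the squalene epoxidase and a rate-controlling step, had 2191 and 2085 against 2457 and 2202, an interval of 0.96-fold to 1.24-fold. Lss, the lanosterol synthase, had 673 and 673 under PBS, against 733 and 756 under rIL17 (log2 fold change 0.15). The demethylation enzymes Cyp51 and Nsdhl had log2 fold changes of 0.23 and 0.20, and Cyp51 had 0.09 without PBS replicate 2. These 5 genes were thus higher in both rIL17 libraries, by ratios of 1.09 to 1.22, and had limma adjusted p-values from 0.252 to 0.489. Stard4, a carrier of cholesterol between membranes, had 815 and 644 under PBS, against 873 and 768 under rIL17, and its groups overlapped.

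**Figure D2:**
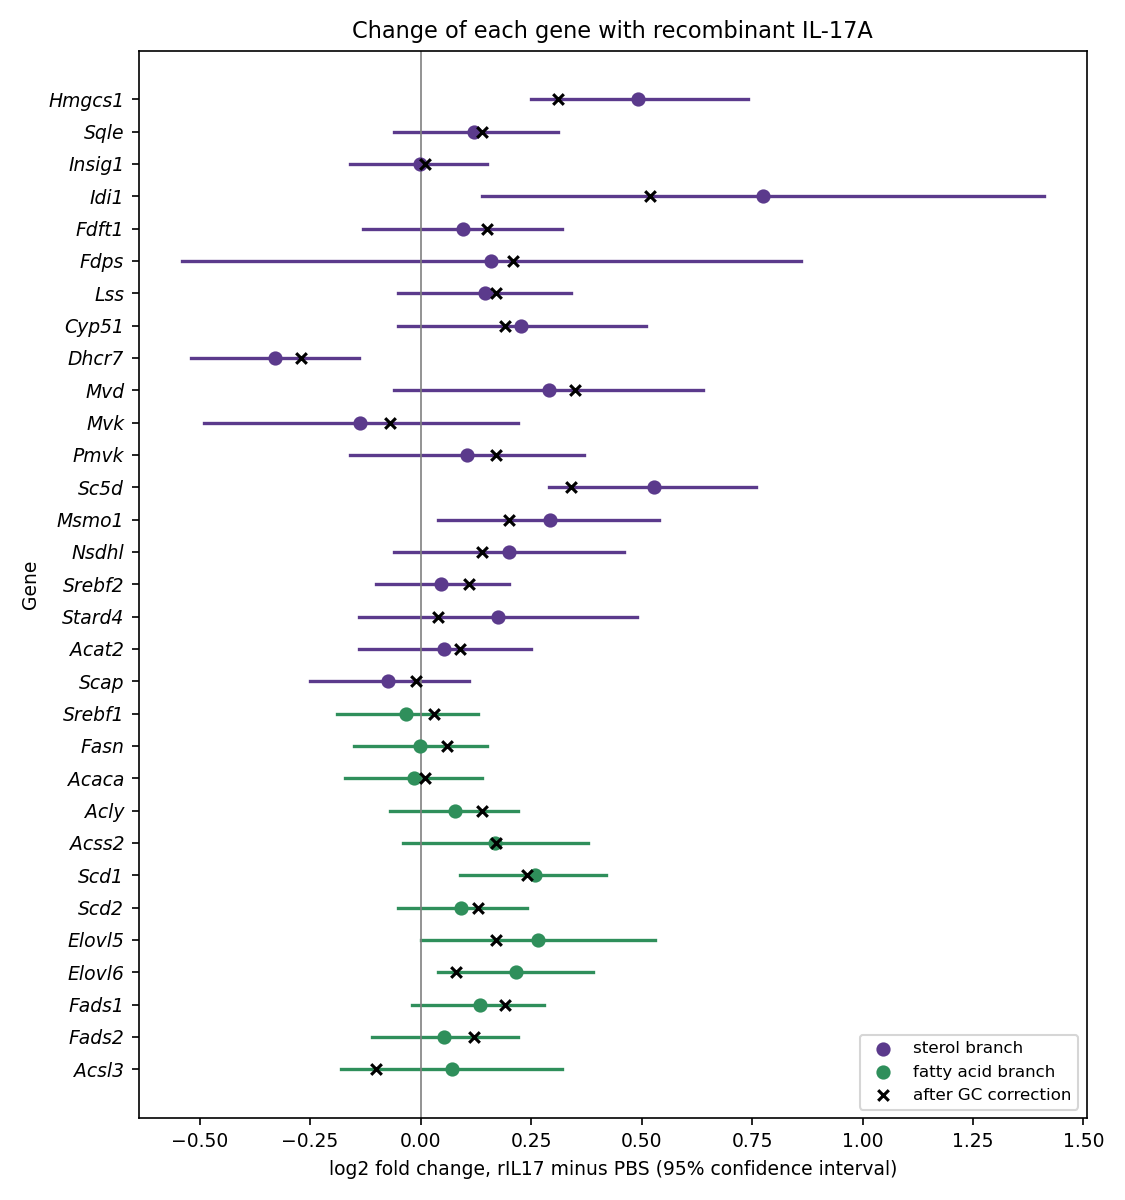
Log2 fold change (rIL17 minus PBS) of each gene as a dot with its 95% confidence interval from limma, purple for the sterol and green for the fatty acid branch, and the value after GC correction as a cross. The intervals of 8 genes leave out 0, and Dhcr7 is the one of these below 0.

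In the fatty acid branch, the supply of acetyl-CoA and the building of the chain showed small differences. Acly, the ATP citrate lyase, had 5023 and 5325 normalized counts under PBS, against 5415 and 5511 under rIL17 (log2 fold change 0.08). Acss2, which activates acetate, had 586 and 637 against 699 and 676 (0.17, SE 0.09). Acaca, the acetyl-CoA carboxylase, had 1921 and 1939 under PBS, against 1912 and 1909 under rIL17. Both rIL17 libraries of Acaca lay below both PBS libraries, with a ratio of means of 0.99. Acaca shares 99.2% identity over 6118 bases with the pseudogene transcript Gm5182 (mean of 299 normalized counts), so its count is uncertain. Fasn, the fatty acid synthase, had 13392 and 13749 under PBS, against 13073 and 14044 under rIL17, an interval of 0.90-fold to 1.11-fold.

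Of the set's genes that lengthen, desaturate or activate the chain, 6 of 7 were higher in both rIL17 libraries. Over all genes tested this share was 25.4%. An unadjusted limma p below 0.05 was found for 3 of the 7, against 16.0% of all genes tested. Scd1, a stearoyl-CoA desaturase (chromosome 19, 44394455 to 44407879), had 2559 and 2346 normalized counts under PBS, against 2924 and 2939 under rIL17. The rIL17 libraries nearly coincided, and the log2 fold change was 0.26 (SE 0.07, limma adjusted p = 0.17), 0.20 when PBS replicate 2 was left out and 0.24 with the GC correction. Its neighbor Scd2 (44293674 to 44306864) had 20520 and 19143 against 21317 and 20943 (0.09, interval -0.05 to 0.24).

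Elovl6, which extends palmitate, had 1386 and 1332 under PBS, against 1622 and 1532 under rIL17 (log2 fold change 0.21, SE 0.07). With the GC correction it was 0.08. Elovl5, an elongase of polyunsaturated chains, had 1311 and 1057 against 1405 and 1423 (0.26, SE 0.11), and 0.11 without PBS replicate 2. So for both elongases the difference shrank by more than 1.5 times under one of these 2 alternatives. Fads1, the delta-5 desaturase, had 2231 and 2319 against 2519 and 2472 (0.13), and Fads2, the delta-6 desaturase, had 0.05. Acsl3, an acyl-CoA synthetase, had overlapping groups. Its log2 fold change, 0.07, turned to -0.10 under the GC correction.

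Compared as branches, 15 of 19 sterol genes and 9 of 12 fatty acid genes had log2 fold changes above 0, and the branch medians were 0.15 and 0.09 (0.15 and 0.08 without PBS replicate 2). Over all genes tested the median was -0.002 and 49.6% were above 0. Both rIL17 libraries lay above both PBS libraries for 9 sterol and 8 fatty acid genes, and below for 1 of each, Dhcr7 and Acaca. The shares over all genes tested were 25.4% above and 24.7% below. The difference between the branch medians was 0.06, and it ran from 0.01 to 0.07 when each library was left out. Sterol genes were spread more widely, from -0.33 to 0.77, than fatty acid genes, from -0.03 to 0.26. They also had lower counts, a median of 775 against 2153 normalized counts, and larger standard errors, a median of 0.10 against 0.07. Since the genes were listed with earlier results of these data known, no test over a branch was made.

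By library, the branch medians lay on the same side for the same treatment. Relative to each gene's mean over the 4 libraries, the sterol median was -0.05 and -0.08 under PBS, against 0.06 and 0.05 under rIL17, on the log2 scale. The fatty acid median was -0.02 and -0.04 in PBS and 0.07 and 0.05 in rIL17. PBS replicate 2 was the lowest library in both branches.

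**Figure D3:**
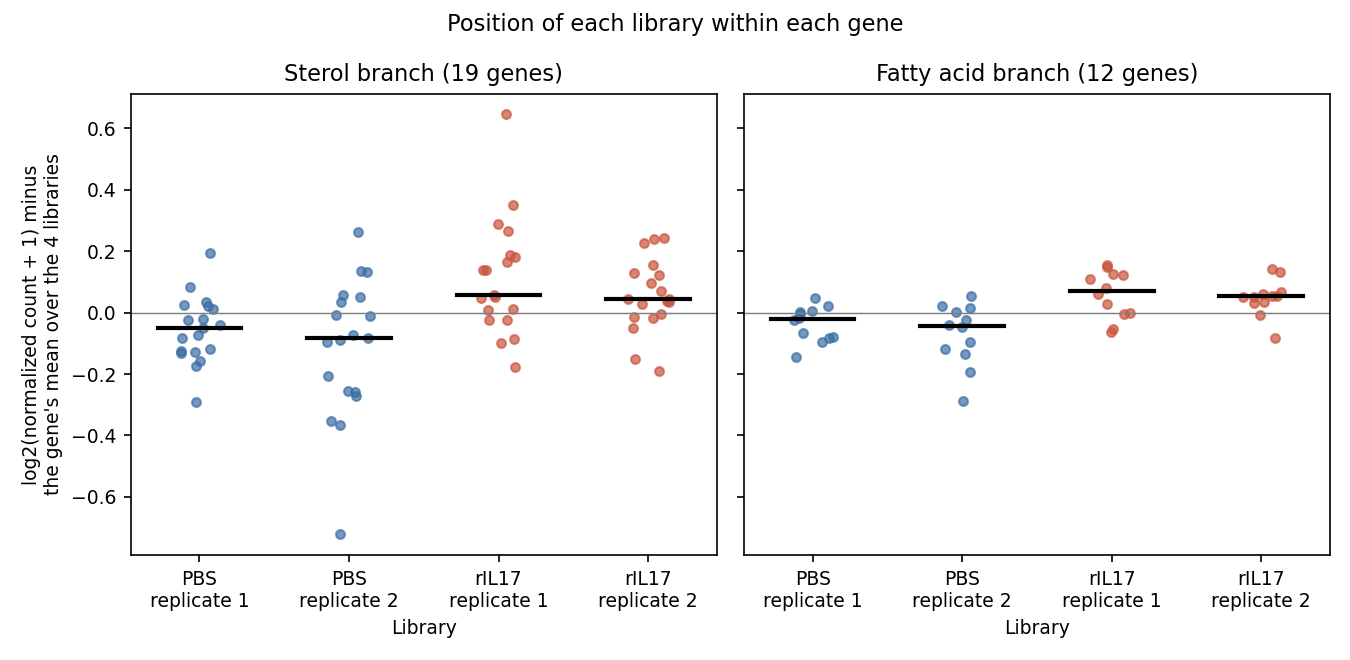
Each point is a gene, placed at its log2(normalized count + 1) minus its mean over the 4 libraries; black bars are medians over the branch in that library. Sterol genes scatter more than fatty acid genes, most of all in PBS replicate 2, and the medians of both rIL17 libraries lie above 0 in both branches.

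The intervals show how precisely each gene was measured. For 26 of the 31 genes the 95% confidence interval of the fold change lay within 1.5-fold in either direction, including all 12 of the fatty acid branch. The 5 others were Hmgcs1, Idi1, Fdps, Mvd and Sc5d. For 10 genes (Insig1, Scap, Srebf1, Srebf2, Acat2, Acly, Acaca, Fasn, Scd2 and Fads2) it lay within 1.2-fold. These intervals are for single genes and are not adjusted for the number of genes.

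The difference between groups moved with the GC content of the transcript. The 8 genes below 45% GC (Idi1, Sc5d, Hmgcs1, Acsl3, Stard4, Elovl6, Msmo1 and Elovl5) all had log2 fold changes above 0, with a median of 0.28. All 3445 tested genes in that class had a median of 0.23, and 52.9% of them were higher in both rIL17 libraries. At 55% or more, the 7 genes of the set had a median of 0.00, and all tested genes one of -0.06. Between the PBS libraries themselves, tested genes below 45% GC were lower in replicate 2 by 0.26 at the median. Across the 31 genes, which share the 4 libraries, log2 fold change and GC content had a Pearson r of -0.61 and a Spearman rho of -0.68. With the GC correction they had -0.31 and -0.34.

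**Figure D4:**
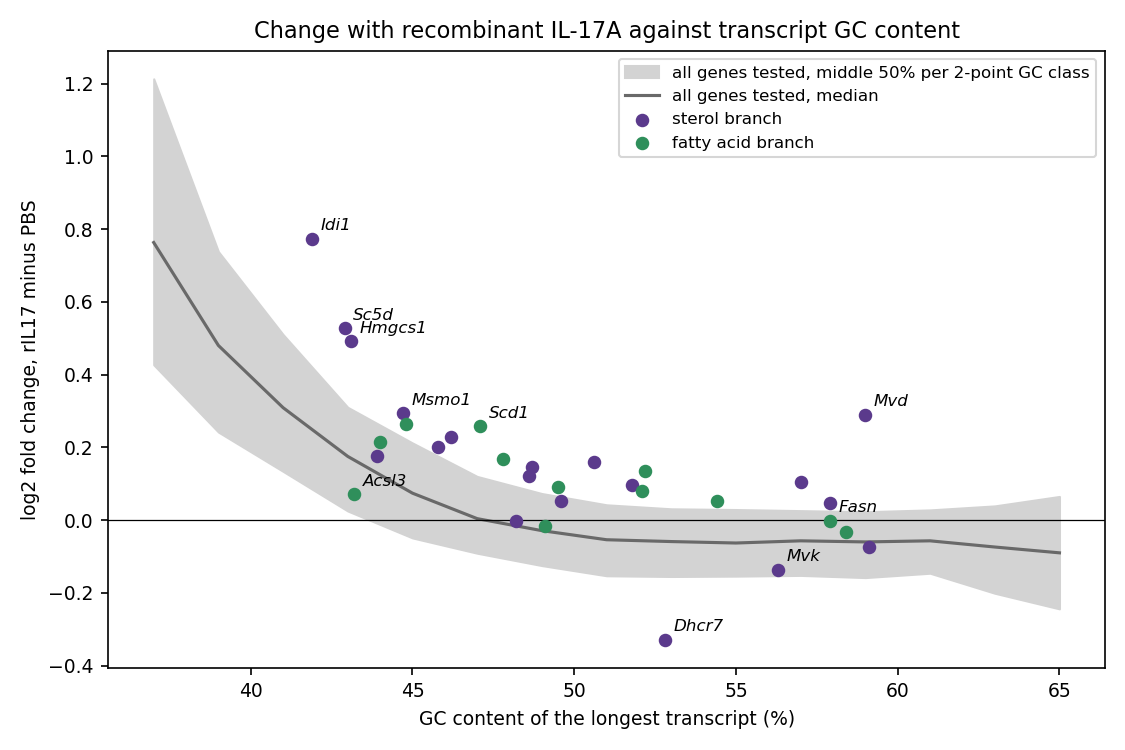
Log2 fold change against GC content of the longest transcript for the 31 genes (purple sterol, green fatty acid), over the median (line) and middle 50% (grey band) of all tested genes in 2-point GC classes. The line rises toward low GC content, where Idi1, Sc5d and Hmgcs1 lie, and Dhcr7 and Mvd lie away from it at higher GC content.

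After that correction the log2 fold changes of the low-GC genes were lower and those of the GC-rich genes higher. Of the 31 genes, 27 were then above 0, against 49.1% of all genes tested, with medians of 0.15 in the sterol and 0.12 in the fatty acid branch. Both corrected rIL17 values lay above both corrected PBS values for 12 of 19 sterol and 11 of 12 fatty acid genes, against 23.8% of all genes. None of the 31 passed in limma after the correction, which called 298 genes, or 2.21% of those tested. The smallest adjusted p was 0.0617, for Hmgcs1. The share of mitochondrial transcripts also differed between libraries, at 0.84% and 0.29% of normalized counts in PBS and 1.3% and 1.17% in rIL17. The PBS libraries lay further apart than PBS replicate 1 and rIL17 replicate 2. The part of this share in these results was not tested.

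Other genes of the same pathways were read from lists of textbook members. Of 16 tested genes of sterol synthesis and its control outside the set, limma called 0, against 0.764% of all genes tested. At an unadjusted p below 0.05, 2 were higher and 1 lower, 3 of 16 against 16.0% of all genes tested. The count by limma-voom was 0, against 1.01% of all genes tested, and the median log2 fold change was 0.05. Insig2, the second retention protein of SREBP, had a log2 fold change of 0.19, and Nus1, of dolichol synthesis, had 0.36, which was 0.14 with the GC correction. Mbtps2, the site-2 protease of SREBP, had 0.43, and 0.04 with the correction. Acat1, the mitochondrial thiolase, had -0.17. Leaving out PBS replicate 1 gave 0.59 for Nus1, 0.71 for Mbtps2 and -0.24 for Acat1, while leaving out PBS replicate 2 gave 0.14, 0.16 and -0.11.

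Of 12 tested genes of cholesterol uptake, esterification and transport, limma and limma-voom called 0, against 0.764% and 1.01% of all genes tested. At an unadjusted p below 0.05, 1 was higher, where 16.0% of all genes tested had such a p. Vldlr, a lipoprotein receptor, had 92.2 and 74.6 normalized counts under PBS, against 163 and 114 under rIL17 (0.71, SE 0.23, limma adjusted p = 0.219). Npc2, which moves cholesterol out of lysosomes, had 0.13, and Osbp, an oxysterol-binding protein, had -0.10.

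Of 17 tested genes of fatty acid synthesis, elongation and activation outside the set, 5 were higher in both rIL17 libraries and 3 lower. Over all genes tested these shares were 25.4% and 24.7%. The median log2 fold change of the 17 was 0.01. By limma and limma-voom 0 were called, against 0.764% and 1.01% of all genes tested. At an unadjusted limma p below 0.05, 1 was higher, against 16.0% of all genes tested. That gene was Acsl4, which activates arachidonate, with 2065 and 1579 normalized counts under PBS, against 3119 and 2693 under rIL17. The log2 fold change was 0.68 (SE 0.14, limma adjusted p = 0.102), and the GC correction lowered it to 0.21. It passed without PBS replicate 2 (0.49, limma adjusted p = 0.0452) and without PBS replicate 1 (0.88, limma adjusted p = 0.000635). Acacb, the mitochondrial acetyl-CoA carboxylase, had 236 and 234 against 243 and 229. Elovl1 had -0.19, Mid1ip1, a partner of acetyl-CoA carboxylase, 0.14, and Oxsm, of mitochondrial fatty acid synthesis, 0.26.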

How the data were processed

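RNA from 4T1 cells treated with PBS or rIL17 (2 libraries each) had been sequenced from strand-specific libraries, per the labels' protocols. CASAVA, HISAT2 2.0.5, featureCounts 1.5.0-p3 and the build mm10 are listed in the submitters' processing notes. The sources used here do not give the annotation release, strand setting or scaling tool. The deposited signal values are normalized counts: in each library 100.0% of values were whole multiples (within 0.001) of a step of 0.9811 to 1.0053, and divided by it gave 17511450 to 17970104 reads. Count-based tests on these recovered reads were not run.

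Genes averaging at least 10 normalized counts over the 4 libraries were tested with limma 3.58.1 (R 4.3.3, mean-variance trend) on log2(normalized count + 1). Treatment was the single model term, and p-values were adjusted by Benjamini-Hochberg over 13479 genes. The fit was also run on simulated counts, drawn with a fixed dispersion and no shift with GC content. These data do have such a shift, so that run does not show how the fit performs here. Fold changes are on that log2 scale, which understates changes of low genes; ratios are of mean normalized counts, and no SD is printed where both libraries are. The floor replaces a looser one (a mean of 1 in 1 group), now an alternative. The members, lists and this floor were chosen with earlier results of these data known. All members are named; for up to 6 per branch with the smallest p the text gives more detail, and from each further list up to 4 genes and its key gene; some genes under this rule are not reported here. Transcript length, GC content and coordinates are from GENCODE M21 (GRCm38), with symbols for 21819 of 21840 rows. The GC correction subtracts a loess fit (span 0.3) of each library on transcript GC content, known for 99.9% of tested genes. Transcripts were compared by blastn (at least 97% identity over 200 bases). Alternatives were 2 other floors, upper-quartile scaling, a pseudocount of 0.1, limma-voom, a replicate block, the GC correction alone and with the block, and leaving out each library.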

Additional observations from a re-analysis of the deposited data

How the results depend on the processing

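In 12 alternatives the 31 members gave 371 log2 fold changes, of which 335 kept their sign and their side of the threshold, 12 passed it and 24 changed sign, the last in 10 members. The number of members called was 0 except with the replicate block (5: Hmgcs1, Idi1, Sc5d, Scd1 and Dhcr7) and without PBS replicate 1, and ran from 0 to 7 over the libraries left out. The replicate numbers are not stated to mark shared cultures. Deviations from the group means correlated at 0.13 between libraries of the same number, and at 0.04 after the GC correction. With block and GC correction together 0 members were called. The number of genes called, 103, became 1124 with the block, 298 with the GC correction, 320 with both, 168 with upper-quartile scaling, 58 with a floor of 100 normalized counts and 0 with the looser floor. It was 2158 without PBS replicate 1, 267 without PBS replicate 2, 1 without rIL17 replicate 1 and 4 without rIL17 replicate 2; the lone library of a group is then assumed to vary as the other group does. The cause of these shifts was not tested.

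The sterol median was 0.11 with upper-quartile scaling and 0.10 to 0.19 with a library left out. The fatty acid median was 0.12 with the GC correction, alone or with the block, 0.05 with upper-quartile scaling and 0.08 to 0.13 with a library left out. The difference between them was 0.03 with the GC correction, alone or with the block, 0.05 with the floor of 100 (which removes Fdps) and 0.01 to 0.07 with a library left out. Signs changed with the GC correction, alone or with the block, for Acaca (0.01), Acsl3 (-0.10), Fasn (0.06), Insig1 (0.01) and Srebf1 (0.03). Over the libraries left out, signs changed for Acat2 (-0.01 to 0.11), Acsl3 (-0.05 to 0.19), Fasn (-0.05 to 0.05), Fdps (-0.11 to 0.43), Insig1 (-0.01 to 0.01), Mvk (-0.33 to 0.06), Pmvk (-0.004 to 0.21), Srebf1 (-0.08 to 0.01) and Srebf2 (-0.001 to 0.09). Upper-quartile scaling left 14 members higher in both rIL17 libraries and 4 lower, and the shares over all genes were not counted under it. It also lowered the median log2 fold change over all genes tested, from -0.002 to -0.04, along with both branch medians. edgeR and DESeq2, planned for recovered reads, were not run.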

Other observations

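Genes that use or export these lipids were read from the same table. Of 8 tested genes of fatty acid oxidation, limma and limma-voom called 0, against 0.764% and 1.01% of all genes tested. At an unadjusted p below 0.05, 2 were higher, where 16.0% of all genes tested had such a p. Cpt1a, which carries fatty acids toward mitochondrial oxidation, had 1188 and 1162 normalized counts under PBS, against 1451 and 1505 under rIL17, a log2 fold change of 0.33 (SE 0.07, limma adjusted p = 0.109). With the GC correction it was 0.38 and passed (adjusted p = 0.0273), as it did without PBS replicate 1 (0.35, limma adjusted p = 0.0178). Acadl, a mitochondrial acyl-CoA dehydrogenase, had 0.17, and 0.09 with the correction. Of 7 tested genes of citrate and NADPH supply, limma and limma-voom called 0, against the same shares. At an unadjusted p below 0.05, 1 was higher, against the same 16.0%. It was Idh1, with 2019 and 1796 under PBS, against 2455 and 2254 under rIL17 (0.30, and 0.16 with the GC correction). Without PBS replicate 1, Idh1 passed (0.39, limma adjusted p = 0.0109). Me1, the malic enzyme, had 0.14.

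Of 8 tested genes of LXR signaling and cholesterol efflux, limma, limma-voom and an unadjusted p below 0.05 called 0. The shares of all genes tested were 0.764%, 1.01% and 16.0%, so a count of 0 among 8 genes says little. Abca1, the cholesterol exporter, had 70.6 and 81.5 normalized counts under PBS, against 110 and 94.3 under rIL17 (log2 fold change 0.42, SE 0.19), while Apoe had 81.4 and 102 against 48.3 and 79.2 (-0.55, SE 0.28). Among 8 tested genes of triglyceride synthesis and lipid droplets all 3 counts were likewise 0, against the same shares of all genes tested. Dgat2, which makes triglyceride, had 0.37, and Pnpla2, the triglyceride lipase, -0.18. Without PBS replicate 2 these were 0.14 and -0.10, and without PBS replicate 1 they were 0.60 and -0.26.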
